A study of Mus musculus with 3 samples.

Results

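The genes described here encode the subunits of heterotrimeric G proteins, the regulators of G protein signalling (RGS proteins) and the G protein-coupled receptor kinases (GRKs). They were chosen by gene symbol alone: every symbol of the Gna, Gnb, Gng and Gngt subunit genes, of the numbered Rgs genes and of Grk1 to Grk6 that the count files list. This gave 58 of 32532 gene symbols, and genes without a single count were kept. The study profiled cortical interneurons of adult mice by translating ribosome affinity purification (TRAP), in which ribosomes carrying a tagged subunit are captured together with the RNA they hold. All 3 libraries came from 1 group: mice with the Cre driver Htr3a-Cre (NO176) and the reporter allele Rosa26-LSL-EGFP/Rpl10a, in which Cre switches on a ribosomal protein fused to EGFP. The whole cerebral cortex was homogenised and ribosomes were pulled down with antibodies against EGFP. The captured cells are thus defined by past or present activity of the driver line, no unpurified cortex is analysed here, and the labels do not say whether replicates 1, 2 and 3 came from separate animals, so a p-value here speaks of variation among these 3 libraries alone, and that variation may be technical.

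A heterotrimeric G protein consists of an alpha subunit that binds GDP or GTP and a beta-gamma dimer, and a ligand-bound receptor makes the alpha subunit exchange GDP for GTP and separate from the dimer. Alpha subunits fall into families by their targets: Gs and Golf stimulate adenylyl cyclase, Gi and Go subunits inhibit it and release beta-gamma dimers that open GIRK potassium channels, Gq subunits activate phospholipase C beta, and G12 and G13 act on RhoGEFs. RGS proteins speed up GTP hydrolysis by alpha subunits and so end the signal, and GRKs phosphorylate active receptors, which are then bound by arrestins.

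Gene counts summed to 14383545, 13951332 and 14461053 in replicates 1, 2 and 3, and the 58 genes took 1.51%, 1.49% and 1.41% of them. Levels are given as TPM, counts divided by the summed exon length of the gene and scaled to 1000000 per library. Of the fixed marker lists for the labelled cells, all 8 genes common to GABAergic neurons had at least 1 TPM in every library, and so had all 8 markers of the Htr3a class. The lowest of each list were Dlx6 at 10.7 TPM and Sp8 at 8.18 TPM. Htr3a itself stood at 602 ± 46.1 TPM (SD, n = 3) and Vip at 1041 ± 169 TPM. Markers of other cells were present as well: Sst at 8248 ± 552 TPM was the highest of the Pvalb and Sst interneuron list, and Camk2a at 2542 ± 302 TPM was the highest of the excitatory list, which had 7 of 8 genes at 1 TPM or more. In a bulk sample, fewer cells of a type and less RNA per cell cannot be told apart, and levels here are averages over all captured cells.

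Of the 42 members with a mean of at least 1 CPM (counts scaled to a library total of 1000000), 28 lay above the median gene of their library and 12 below it (limma on log2(TPM + 0.1), adjusted p under 0.05), against 42.1% above and 42% below of the 12456 genes tested. The median tested member lay 1.60 log2 units above the median gene. At least 1 TPM was reached in every library by 42 members and at least 100 TPM by 18. The same was not counted over all genes, so neither number can be called particular to the members. The 2 tested members on neither side were Gna12, at 0.30 log2 units above the median gene (limma adjusted p = 0.133), and Rgs5, at -0.21 log2 units (limma adjusted p = 0.197). The tested members had passed a filter on mean level, so these counts describe the 42 and not the 16 others.

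**Figure D1:**
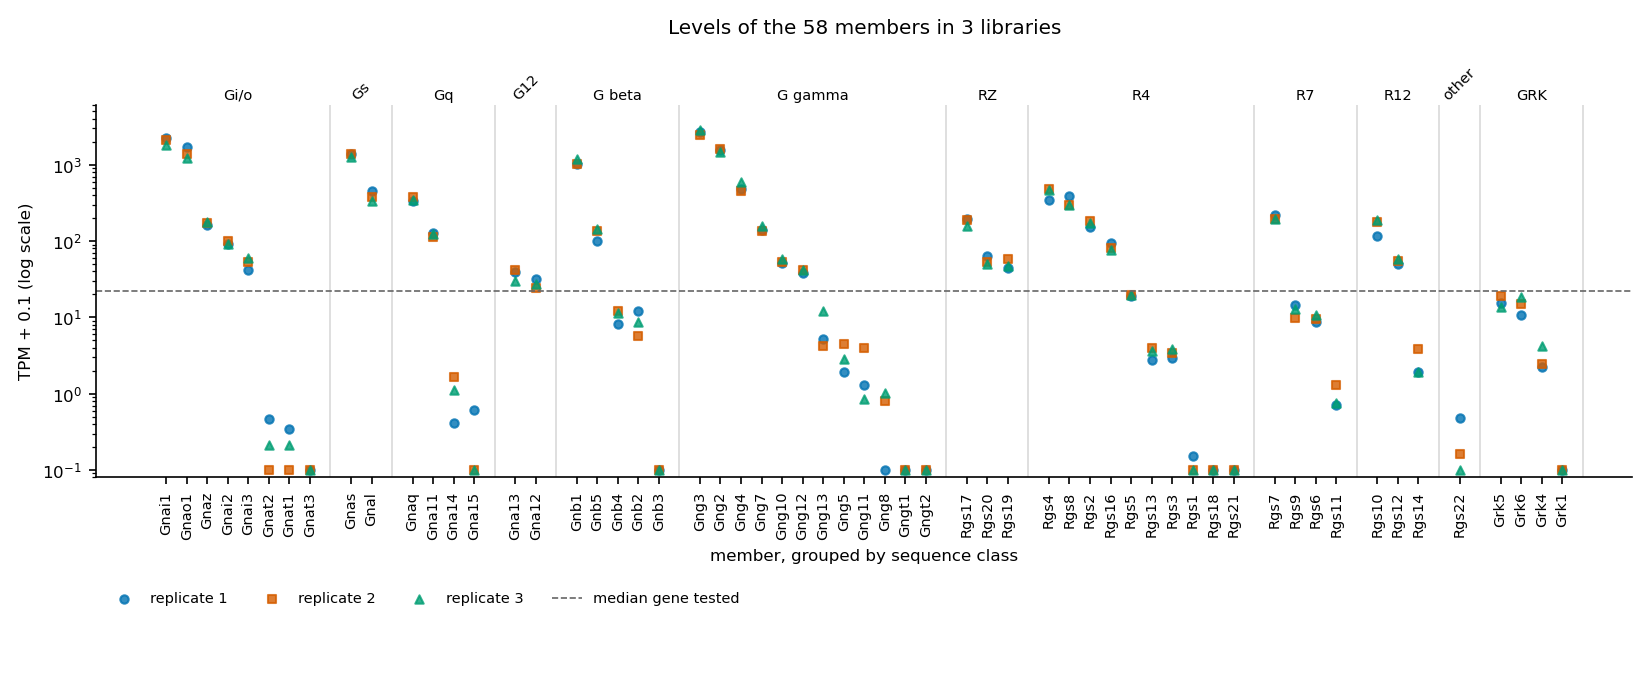
Level of each of the 58 genes in the 3 libraries, as TPM + 0.1 on a log axis, grouped by sequence class, with the median tested gene as a dashed line. Per merged exon length, subunit genes from Gng3 at 2653 TPM down to Gnb1 at 1088 TPM stand highest, and 7 genes lie at 0 in all libraries.

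Among the alpha subunits, genes of the Gi/o class gave most of the RNA. Their summed level was 4207, 3800 and 3404 TPM in replicates 1, 2 and 3, or 62.5 ± 1.34% of all alpha subunit TPM (SD, n = 3). The Gs class followed with 28.5 ± 0.66%, the Gq class with 7.90 ± 0.71% and the G12 class with 1.06 ± 0.03%. All 5 tested Gi/o genes, both Gs genes and both tested Gq genes lay above the median gene. No alpha subunit gene tested lay below it. Of all genes tested, 42.1% lay above and 42% below. Gnat1, Gnat2, Gnat3, Gna14 and Gna15 averaged under 1 CPM and were not tested. The order of the 4 classes was the same in each library. The shares themselves depended on the gene length used: with the longest annotated transcript in place of all exons, Gi/o took 50.6% and Gs 43.6%.

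Gnai1, which encodes an alpha subunit that inhibits adenylyl cyclase, had the highest level of the alpha subunits, with 2226, 2104 and 1835 TPM (2055 ± 200, SD, n = 3). It lies on chromosome 5 at 18265135 to 18360355 of GRCm38. Gnao1, the abundant Go subunit of neurons, on chromosome 8 at 93809966 to 93969388, had 1685, 1368 and 1241 TPM. Replicate 1 was highest and replicate 3 lowest for both genes. Gnai1 was 1.44-fold above Gnao1 per length (log2 difference of Gnao1 minus Gnai1 -0.53 ± 0.11, SD, n = 3, limma adjusted p = 0.00909 over 27 pairs), and this order held in each library. It turned with the length assigned to Gnao1, whose merged exons span 11053 bases and whose principal transcript has 3462. With principal transcripts as lengths, Gnao1 stood at 2998 ± 479 TPM, above Gnai1 at 1348 ± 130 TPM, and the log2 difference was 1.15.

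The remaining Gi/o genes were far lower. Gnaz, which encodes a pertussis toxin-insensitive relative, had 163, 174 and 177 TPM, and Gnai1 was 11.98-fold above it. Gnai2, widely expressed outside the nervous system, had 90.9, 100.3 and 91.9 TPM, and Gnai3 had 41.6, 53.8 and 59.2 TPM. Gnai1 exceeded Gnai2 21.7-fold and Gnai2 exceeded Gnai3 1.85-fold, the latter with log2 differences of 1.13, 0.90 and 0.63 in replicates 1 to 3. With the principal transcript as length the first ratio was smaller, at 3.67 log2 units against 4.44, and the second larger, at 1.65 against 0.89. The 3 transducins, alpha subunits of photoreceptors and taste cells, were near or at 0: Gnat1 had 2, 0 and 1 counts, Gnat2 had 3, 0 and 1 counts, and Gnat3 had none.

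In the Gs class, Gnas on chromosome 2 at 174284320 to 174346744 had 1366, 1395 and 1265 TPM, and its values did not separate from those of Gnao1 (log2 difference of Gnao1 minus Gnas 0.08 ± 0.19, SD, n = 3, limma adjusted p = 0.669). Gnao1 was higher than Gnas in replicate 1 only. With the longest transcript as length, Gnas was the higher of the pair (log2 difference -0.42, limma adjusted p = 0.0349). Gnal, which encodes Golf, the Gs relative known from olfactory neurons and the striatum, had 459, 375 and 337 TPM, 3.47-fold below Gnas. Gnas is a complex imprinted locus, and 22.0% of its exon bases are overlapped by genes on the opposite strand, from which its reads cannot be told apart. On principal transcripts the levels were 2523 ± 125 TPM for Gnas and 824 ± 132 TPM for Gnal.

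Golf, Gng7 and Rgs9 are best known together in striatal projection neurons, and their levels were spread widely here. Gng7 had 138, 137 and 158 TPM, while Rgs9 had 14.4, 9.79 and 12.7 TPM. Of the 8 fixed markers of striatal projection neurons, 7 reached 1 TPM in every library and Isl1 was at 0 in replicate 3, with summed levels of 179, 180.3 and 184 TPM. The highest of that list was Pde10a at 54.7 TPM. The part of striatal cells in these values was not tested.

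In the Gq class the level was split within neighbouring gene pairs. Gnaq had 340, 377 and 349 TPM, and Gna14, which starts 48.3 kb beyond its end on chromosome 19 and on the same strand, had 3, 15 and 10 counts or 0.96 ± 0.62 TPM (SD, n = 3). Gna11 had 128.8, 112.6 and 122.9 TPM, and Gna15, 4.50 kb from it on chromosome 10, had 3, 0 and 0 counts. Gnaq and Gna11 encode the broadly expressed activators of phospholipase C beta, and Gna15 is known from blood cells. Gnaq exceeded Gna11 2.93-fold (1.55 log2 units per length and 2.14 in CPM), and the libraries of the pair did not overlap. The 5 measured blood cell genes of 7 summed to 8.64, 3.41 and 11.5 TPM, with Hbb-bs at 0 in replicate 1 and Hba-a2 and Ppbp at 0 in replicate 2.

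The stretches upstream of these 4 genes are shown because each neighbouring pair held a gene above 100 TPM and a gene under 1 TPM. They are the 150 bases just before the RefSeq start of each gene (the outermost start where there are several), from RefSeq on GRCm38.p6, 5′ to 3′ on the strand of the gene, with each CG dinucleotide in capitals. CG reads the same on both strands. The genes were picked for printing after their levels were known.
Gnaq, chr19:16132534-16132683, plus strand: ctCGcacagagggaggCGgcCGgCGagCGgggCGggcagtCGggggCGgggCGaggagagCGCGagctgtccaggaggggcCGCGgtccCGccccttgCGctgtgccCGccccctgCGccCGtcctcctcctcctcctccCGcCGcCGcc
Gna14, chr19:16435517-16435666, plus strand: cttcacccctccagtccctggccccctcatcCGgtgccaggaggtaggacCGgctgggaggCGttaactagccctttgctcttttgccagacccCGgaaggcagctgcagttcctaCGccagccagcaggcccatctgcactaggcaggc
Gna11, chr10:81545163-81545312, minus strand: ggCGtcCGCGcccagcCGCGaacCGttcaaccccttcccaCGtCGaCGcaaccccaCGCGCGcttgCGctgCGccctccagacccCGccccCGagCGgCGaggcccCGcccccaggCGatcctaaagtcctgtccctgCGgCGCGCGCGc
Gna15, chr10:81524226-81524375, minus strand: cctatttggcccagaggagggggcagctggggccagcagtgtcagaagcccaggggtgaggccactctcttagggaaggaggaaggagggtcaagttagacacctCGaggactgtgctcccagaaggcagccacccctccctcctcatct

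The stretches hold 21 CG dinucleotides for Gnaq, 5 for Gna14, 25 for Gna11 and 1 for Gna15. Counted over the 250 bases upstream, the numbers were 37, 7, 38 and 4. Of the 27025 genes in the promoter table, whose median was 6, 2.09% had as many as Gnaq and 1.79% as many as Gna11, while 46.6% had as many as Gna14 and 61.9% as many as Gna15. In both pairs the gene with the higher level had the more CG dinucleotides. Other neighbouring pairs of the family also held genes of unlike level. Gnat2 lies 5.85 kb from Gnai3 on chromosome 3, Gnat1 lies 39.1 kb from Gnai2 on chromosome 9, and Gnat3 lies 245.3 kb from Gnai1 on chromosome 5. In each of these the transducin gene was under 1 TPM.

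The G12 class was low. Gna13 had 39.4, 42.1 and 30.2 TPM and Gna12 had 31.3, 24.2 and 27.2 TPM. Gna13 was the higher in each library, 1.34-fold on average, with log2 differences of Gna12 minus Gna13 of -0.33, -0.79 and -0.15. The call was weak (limma adjusted p = 0.0342 with the spread pooled over pairs) and was lost without pooling the spread (limma without moderation, adjusted p = 0.175) and without replicate 1 or 2. In CPM the log2 difference was -1.33.

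Beta subunit RNA came almost wholly from Gnb1. Gnb1, on chromosome 4 at 155491361 to 155559269, had 1031, 1028 and 1206 TPM, or 88.3 ± 1.20% of the beta subunit total (SD, n = 3). Gnb5, which pairs with RGS proteins of the R7 family in place of a gamma subunit, had 99.8, 134 and 143 TPM, and Gnb1 exceeded it 8.74-fold. Replicate 3 was highest for both genes. Gnb4 had 8.20, 12.1 and 11.3 TPM and Gnb2 had 12.2, 5.54 and 8.65 TPM, so that Gnb1 exceeded them 104-fold and 128-fold. Both lay below the median gene, at -1.10 and -1.41 log2 units from it. Without a length correction the log2 difference of Gnb1 and Gnb4 was 5.13 in place of 6.70. Gnb2 rested on 114, 53 and 85 counts. Its level, low for a broadly expressed gene, and the values that rest on it are uncertain, since the gene models behind the counts may differ from those that gave the lengths. Gnb3, known from cone photoreceptors, had no count in any library.

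Per merged exon length, the highest level of all 58 genes was that of a gamma subunit. Gng3, a neuronal gamma subunit on chromosome 19 at 8836933 to 8839194, had 2679, 2461 and 2818 TPM and ranked 25th of all genes with a length. Gng2, on chromosome 14 at 19872559 to 19977627, had 1577, 1600 and 1483 TPM. Gng4 had 475, 453 and 597 TPM. Gng3 gave 53.4 ± 1.47% of the gamma subunit total (SD, n = 3), Gng2 31.3 ± 2.50% and Gng4 10.2 ± 1.16%. Gng3 was 1.71-fold above Gng2 (limma adjusted p = 0.000215), 18.4-fold above Gng7 and 409-fold above Gng13, and Gng2 was 3.08-fold above Gng4. No library of these pairs overlapped.

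The lead of Gng3 depended on the length used. On principal transcripts Gng3 stood at 1740.5 TPM, below Gnao1 and Gnas, and in CPM it had 861 against 3119 for Gnao1 and 2968 for Gnas. In CPM, with no length correction, Gng2 had the larger share of gamma subunit reads at 49.8% against 31.8% for Gng3, and the log2 difference of Gng2 minus Gng3 was 0.65 in place of -0.77. The log2 difference of Gng3 minus Gng7 was 2.995 in CPM against 4.20 per length, and that of Gng13 minus Gng3 was -9.63 against -8.68. Overlapping exons of other genes cover 24.2% of the exon bases of Gng3 (Bscl2, opposite strand) and 20.4% of those of Gng2. Gng12 had 38.6, 42.1 and 42.2 TPM and Gng5 had 1.84, 4.37 and 2.75 TPM, a 14.1-fold difference (3.82 log2 units per length and 4.55 in CPM). The level of Gng5 rested on 14, 34 and 22 counts, and 19.7% of its transcript is repeated nearly identically in other genes, Gng5-ps among them, so its value is uncertain. Gng13, a gamma subunit of taste and olfactory cells, had 5.16, 4.14 and 12.1 TPM from 11, 9 and 27 counts, and 51.6% of its exon bases lie within exons of Chtf18. For Gng10, at 54.1 ± 3.34 TPM, 71.99% of exon bases are shared with a gene on the same strand, so its level is uncertain too. The transducin gamma genes Gngt1 and Gngt2 had no count, Gng8 had 0, 3 and 4 counts and Gng11 had 3, 10 and 2.

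Gng3 and Gng5 stood at opposite ends of the gamma subunits with at least 1 TPM in every library, and their upstream stretches are shown because they run against the pattern of the Gq pairs. They were chosen like the 4 above and are printed in the same way. The level of Gng5 is uncertain, as said above, and so is its part in this contrast.
Gng3, chr19:8839247-8839396, minus strand: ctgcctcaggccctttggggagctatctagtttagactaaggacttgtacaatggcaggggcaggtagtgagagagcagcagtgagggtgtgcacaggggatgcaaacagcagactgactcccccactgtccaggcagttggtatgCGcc
Gng5, chr3:146499686-146499835, plus strand: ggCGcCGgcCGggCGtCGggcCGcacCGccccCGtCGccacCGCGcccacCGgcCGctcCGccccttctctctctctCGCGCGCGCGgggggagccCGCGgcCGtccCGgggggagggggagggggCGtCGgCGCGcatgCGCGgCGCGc

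The stretch of Gng3 holds 1 CG dinucleotide and that of Gng5 holds 31. Over 250 bases the numbers were 2 and 44, and 80.5% of genes in the table had as many as Gng3 against 0.54% for Gng5. Gng2 was like Gng3, with 3 CG dinucleotides at 1553 TPM, whereas Gnai1 had 43 at 2055 TPM. Of the 44 members in the promoter table, the 29 at 10 TPM or more had a median of 18 CG dinucleotides (range 2 to 43), the 7 between 1 and 10 TPM had a median of 12, and the 8 under 1 TPM had a median of 4 (range 1 to 7). These are descriptions of the letters upstream of annotated starts, and which start the captured RNA used was not tested. Medians by level were not taken over all genes, so their order cannot be called particular to these members.

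**Figure D2:**
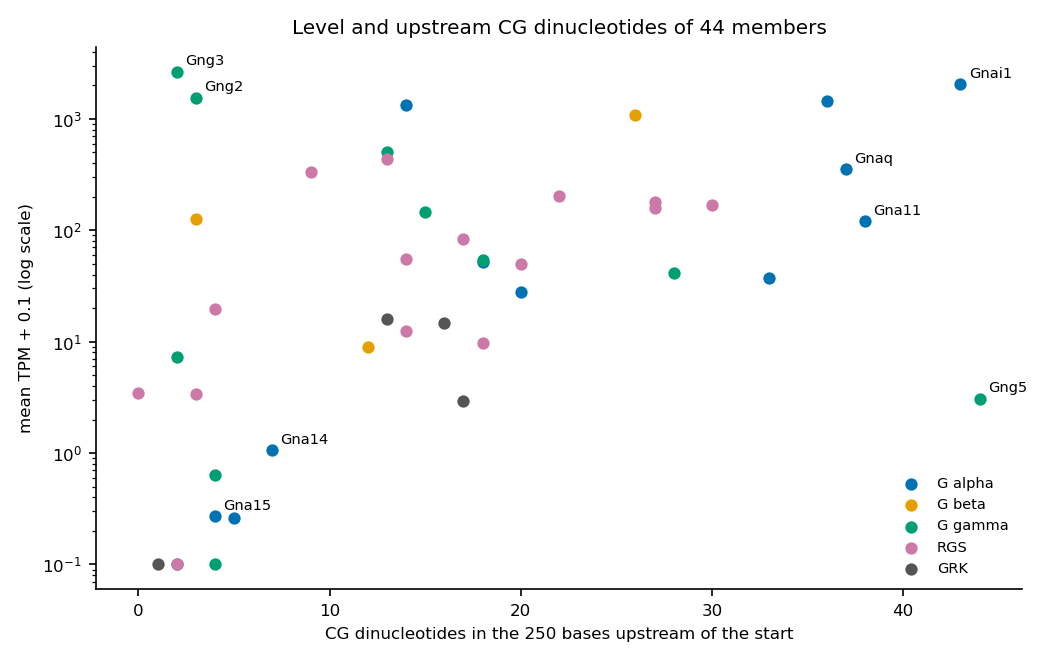
Mean level of 44 genes as TPM + 0.1 on a log axis against the number of CG dinucleotides in the 250 bases upstream of the RefSeq start, coloured by family. Genes under 1 TPM have 7 or fewer, and the genes at 10 TPM or more range from Gng3 with 2 to Gnai1 with 43.

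**Figure D3:**
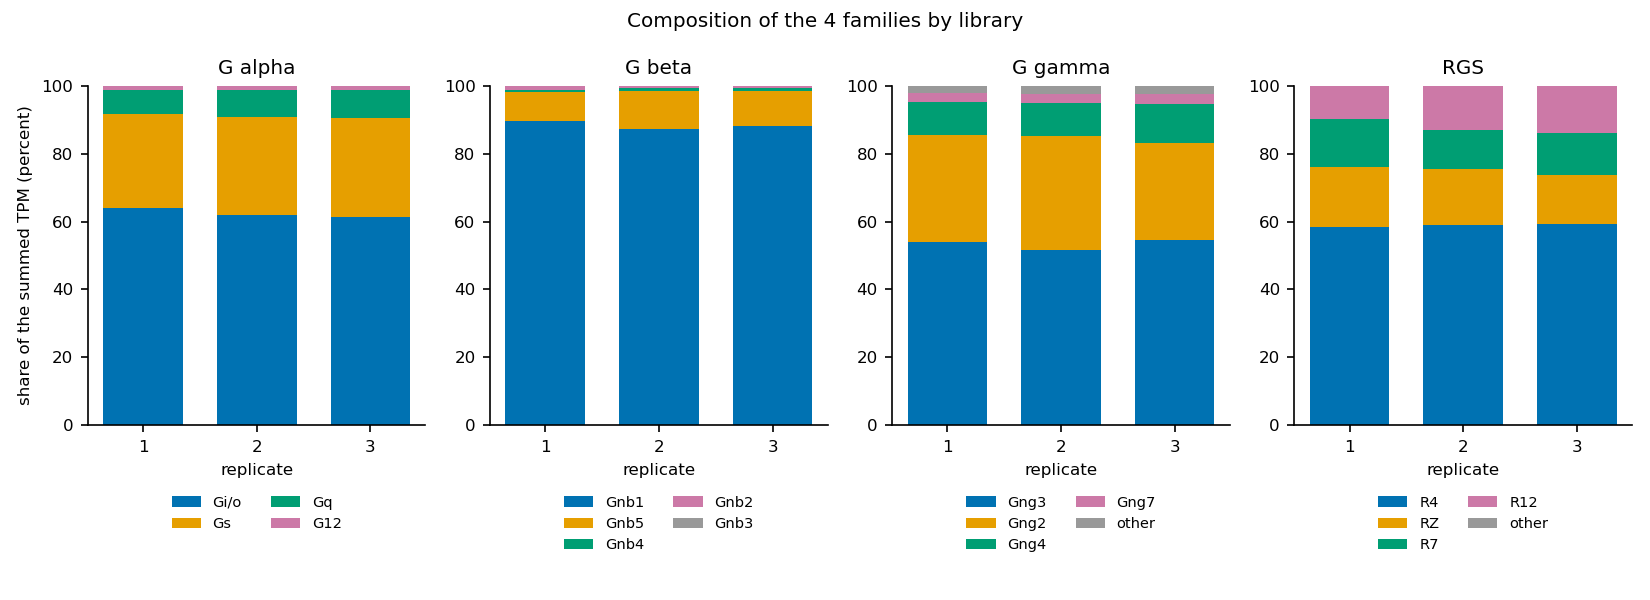
Share of each class or gene in the summed TPM of the alpha, beta, gamma and RGS genes, 1 bar per replicate, each bar adding up to 100 percent. Gi/o, Gnb1, Gng3 and the R4 family are the largest parts in each replicate.

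Of the 21 RGS genes, 16 were tested, of which 10 lay above the median gene, 5 below it and 1 on neither side, against 42.1% above and 42% below of all genes tested. Their summed level was 1722, 1825 and 1759 TPM, and the R4 family of small RGS proteins gave 59.0 ± 0.47% of it (SD, n = 3; 50.4% with the longest transcript as length). Rgs4 and Rgs8, both R4 proteins that act on Gi/o and Gq subunits in neurons, were the highest per merged exon length. On principal transcripts Rgs7 stood above both, at 377 TPM against 299 for Rgs4 and 247 for Rgs8, and in CPM Rgs17 at 295 was above Rgs4 at 266. Rgs4, on chromosome 1 at 169741477 to 169747642, had 342, 488 and 469 TPM. Rgs8, on the same chromosome at 153653025 to 153700323, had 395, 298 and 301 TPM.

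The order of these genes differed between libraries: Rgs8 was above Rgs4 in replicate 1, and Rgs4 was above Rgs8 in replicates 2 and 3. The log2 differences of Rgs4 minus Rgs8 were -0.21, 0.71 and 0.64, and their mean of 0.38 missed the threshold by limma (adjusted p = 0.0550). It passed without replicate 1, at 0.68 (limma adjusted p = 0.0106). In CPM the mean difference was -1.26, since Rgs8 has the longer exons.

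Rgs2, an R4 protein known for acting on Gq, had 151, 185 and 173 TPM, and Rgs16 had 93.7, 80.5 and 76.4 TPM. Rgs4 exceeded Rgs2 2.53-fold and Rgs8 exceeded Rgs16, its neighbour at 40.0 kb, 3.94-fold. The latter was 4.02 log2 units in CPM against 1.98 per length. Rgs5, a widely used marker of pericytes that lies 45.7 kb from Rgs4, had 19.0, 19.6 and 19.4 TPM, the narrowest spread in CPM of the 35 members with at least 10 CPM (coefficient of variation 4.33%). The 8 fixed mural cell markers summed to 11.8, 12.9 and 15.8 TPM, with 2 of 8 at 1 TPM or more in every library and none at 0 in any, and the part of mural cells in the level of Rgs5 was not tested. Rgs3 and Rgs13 were low at 3.28 ± 0.45 and 3.35 ± 0.64 TPM, and 38.5% of the transcript of Rgs3 is repeated in another gene model.

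A cluster of 5 R4 genes on chromosome 1 ran from high to undetected. From Rgs2 at 143999338 to 144004161, the next genes are Rgs13, Rgs1, Rgs21 and Rgs18, with gaps of 134 kb, 64.9 kb, 267 kb and 185 kb. Rgs2 had 5212 counts over the 3 libraries, Rgs13 had 47, Rgs1 had 1, and Rgs21 and Rgs18 had none. Rgs1 and Rgs18 are known from leukocytes and platelets. Microglial markers were low, with 5 of 8 at 1 TPM or more in every library, C1qa at 0 in replicates 1 and 2, and sums of 35.3, 20.9 and 28.9 TPM.

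In the R7 family, whose members bind Gnb5, RNA of Rgs7 outweighed the others. Rgs7, on chromosome 1 at 175059087 to 175492500, had 219, 194 and 192 TPM, 20.9-fold above Rgs6 at 8.51, 9.54 and 10.7 TPM and 16.4-fold above Rgs9. Rgs11 had 7, 14 and 8 counts. The libraries of Rgs7 did not overlap with those of Rgs6 or Rgs9. The principal transcript of Rgs6 is far shorter than its merged exons, and on principal transcripts Rgs7 stood at 377 ± 28.6 TPM and Rgs6 at 28.6 ± 3.31 TPM, a log2 difference of 3.72 in place of 4.38. Of the proteins that anchor the R7 family to membranes, Rgs7bp had 672 ± 155 TPM and the orphan receptor Gpr158 had 193 ± 14.2 TPM, and both lay above the median gene, while Rgs9bp had 1 count in all.

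In the RZ family, which acts on Gz and Gi/o subunits, all 3 genes lay above the median gene, against 42.1% of all genes tested. Rgs17, on chromosome 10 at 5825663 to 5922400, had 197, 187 and 156 TPM, Rgs20 had 63.4, 53.6 and 50.1 TPM, and Rgs19 had 43.9, 57.4 and 46.7 TPM. Rgs17 exceeded Rgs20 3.22-fold and Rgs19 3.65-fold. Both ratios depended on length: the log2 difference from Rgs20 ranged from 0.47 with principal transcripts to 2.66 in CPM, and that from Rgs19 from 1.32 with the longest transcript to 3.76 in CPM, always with Rgs17 higher.

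In the R12 family, Rgs10 on chromosome 7 at 128373621 to 128418758 had 116, 176 and 186 TPM. Rgs10 is a small RGS protein known from microglia as well as neurons, and the part of microglia in its level was not tested. Rgs12, a large multidomain protein, had 50.3, 55.4 and 58.1 TPM, and Rgs14, a scaffold known from hippocampal area CA2, had 1.80, 3.77 and 1.80 TPM. Rgs12 exceeded Rgs14 22.7-fold (4.50 log2 units per length and 5.49 in CPM). Rgs10 exceeded Rgs5 8.02-fold per length, and the log2 difference of 3.003 became 1.59 in CPM and 3.81 on principal transcripts. Replicate 1 was the lowest for Rgs10 and Rgs12, and replicate 2 stood above the others for Rgs14. Rgs22, outside these families, had 6, 1 and 0 counts.

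**Figure D4:**
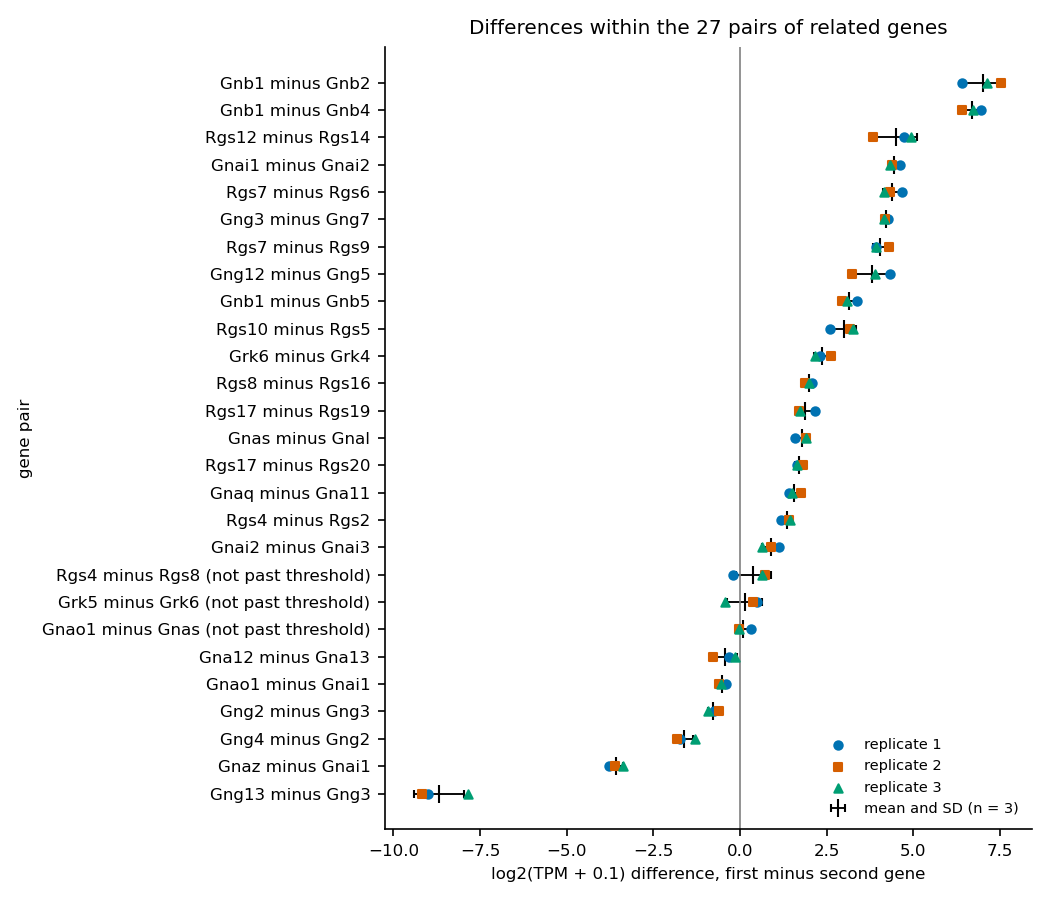
Difference in log2(TPM + 0.1) within each of 27 pairs of related genes, 1 point per replicate with the mean and SD (n = 3). All 3 replicates lie on the same side of 0 in 24 pairs, and Gnao1 minus Gnas, Rgs4 minus Rgs8 and Grk5 minus Grk6 have replicates on both sides.

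The GRK genes under their present names were low, and all 3 tested lay below the median gene, against 42% of all genes tested. Grk5 had 15.1, 19.1 and 13.6 TPM, Grk6 had 10.8, 14.9 and 18.5 TPM, and Grk4 had 2.10, 2.35 and 4.09 TPM. Grk5 and Grk6 are broadly expressed membrane-bound kinases, and their levels were not told apart (log2 difference 0.13 ± 0.50, SD, n = 3, limma adjusted p = 0.502), with Grk5 higher in replicates 1 and 2 and Grk6 in replicate 3. The call depended on length and went both ways: Grk6 was higher on principal transcripts (-0.71, limma adjusted p = 0.000567) and Grk5 was higher in CPM (0.88, limma adjusted p = 2.16e-05). With the longest transcript the difference was -0.25 (limma adjusted p = 0.196). Grk6 exceeded Grk4 5.11-fold, and their libraries did not overlap. Grk1, rhodopsin kinase, had no count. Grk2 and Grk3 are not among the symbols of the files, which list their older names Adrbk1 and Adrbk2. Adrbk1 had 68.3, 71.1 and 91.2 TPM and Adrbk2 had 40.9, 43.5 and 49.2 TPM, so that these beta-gamma-recruited kinases stood above Grk5 and Grk6 in each library. Adrbk1 exceeded Adrbk2 1.72-fold (log2 difference 0.78 ± 0.10, SD, n = 3, limma adjusted p = 0.00015 over 28 pairs).

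Over the 27 pairs, 24 passed the threshold (largest limma adjusted p among them 0.0342). The pairs share genes and libraries, and the test pooled the spread over pairs, so the standard error was 0.19 log2 units for each of them. With the spread of each pair taken alone, 23 passed, with adjusted p from 0.00232 to 0.0293 (limma without moderation). Pairs of unrelated genes were not tested, so these counts cannot be called particular to related genes.

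No count was found in any library for 7 members: Gnat3, Gnb3, Gngt1, Gngt2, Grk1, Rgs18 and Rgs21. A count of 0 allows up to 3 counts, or 0.209, 0.215 and 0.207 CPM in replicates 1, 2 and 3, and covers counting error only. Of these, Gnat3, Gnb3, Gngt1, Gngt2 and Grk1 are known from photoreceptors or taste cells.

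Other genes of the pathway came from lists of general knowledge. Those named are the highest or lowest of their lists, and the ends of any list differ. Of 44 measured genes, 36 were tested, of which 19 lay above the median gene and 12 below it, against 42.1% and 42% of all genes tested. Kcnj3 at 181 ± 20.7 TPM was the highest of the GIRK channel genes, 3 of which lay above the median gene, and Kcnj5, at 1.15 ± 0.74 TPM, lay below it. Plcb1 at 254 ± 34.4 TPM and Plcb3 at 0.73 ± 0.09 TPM were the ends of the phospholipase C beta genes, of which 2 lay above and 2 below. Arrb1, encoding beta-arrestin 1, had 133 ± 12.01 TPM, and Sag, the rod arrestin, had 0.70 ± 0.55 TPM. Of the RhoGEFs downstream of G12 and G13, Arhgef12 at 278 ± 12.4 TPM was the highest and Arhgef1 at 4.08 ± 1.24 TPM the lowest. Ric8b, a chaperone of Gs subunits, had 67.4 ± 8.51 TPM, and the phosducins Pdc and Pdcl2 had no count. Among GoLoco proteins, which hold Gi subunits in the GDP form, none of 3 tested lay above the median gene and 2 lay below it. Of 5 further proteins with an RGS domain 2 lay above and 1 below, with Snx13 highest at 69.2 ± 5.85 TPM. The last list held relatives such as Gprasp1, a receptor-sorting protein, at 226 ± 30.9 TPM, and had 6 genes above and 2 below.

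The spread between libraries was then set against counting error. Of the 42 members tested, 34 varied more than counting allows (chi-square test with Benjamini-Hochberg adjustment over 12949 genes, adjusted p under 0.05), a share close to the 74.3% of all genes tested. The edgeR biological coefficient of variation draws each gene toward others of like level. It was at least 0.2 in 16 members, against 59% of all genes. Its median was 17.1% in the members and 22.4% in all genes, which were not matched for level. It does not rank genes by their own spread alone: Rgs5 reached the cut at 20.3%, and Rgs10 did not at 19.1%. At a mean of at least 10 CPM, 29 of 35 members varied by the chi-square test, against 81.6% of all such genes. Without replicate 1, 21 members varied, against 42.5% of all genes. With all 3 libraries and all 42 members, those not past the chi-square threshold were Gnai2, Gnaz, Gng10, Gng12, Rgs3, Rgs5, Rgs6 and Rgs13.

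Of the 35 members with a mean of at least 10 CPM, the median coefficient of variation of CPM was 10.6%, and the 6 with the widest were Grk6, Rgs10, Gnb4, Rgs4, Gnb5 and Gnai3. Grk6 had 8.69, 12.6 and 15.5 CPM (coefficient of variation 27.8%), and Rgs10 had 37.96, 60.6 and 63.5 CPM (25.9%). Gnb4 had 20.0, 30.9 and 28.6 CPM (21.8%). Replicate 1 was the lowest library for these genes. The same held for Rgs4 with 203, 305 and 290.0 CPM, Gnb5 with 59.6, 83.9 and 89.0 CPM, and Gnai3 with 26.0, 35.4 and 38.6 CPM. The ratio of the highest to the lowest scaled library ranged from 1.38 to 1.66 over the 6, which were chosen for their spread and are given without a test. Of the tested R7 genes, Rgs7 and Rgs9 were highest in replicate 1, unlike Gnb5. Rgs6 was lowest in replicate 1 and highest in replicate 3, as Gnb5 was, with 16.3, 19.3 and 21.4 CPM.

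A typical gene read lower in replicate 1: the median tested gene stood at 20.9, 22.8 and 23.4 TPM in replicates 1 to 3. Library sizes scaled by TMM were 0.954, 1.02 and 1.03 times the totals. How often each library was the lowest was not counted over all genes. In CPM without that scaling, replicate 1 was the lowest library for 19 of the 35 members and the highest for 10. Its sums differed for other genes as well: Htr3a class markers summed to 4153, 3266 and 3393 TPM and oligodendrocyte markers to 413, 279 and 242 TPM in replicates 1 to 3, with 8 of 8 and 7 of 8 genes at 1 TPM or more in every library and Opalin at 0 in replicate 3. General GABAergic markers summed to 3251, 3414 and 3258 TPM, and excitatory markers to 3627, 3259 and 3299 TPM. The part of these differences in the spread of the G protein genes was not tested.

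**Figure D5:**
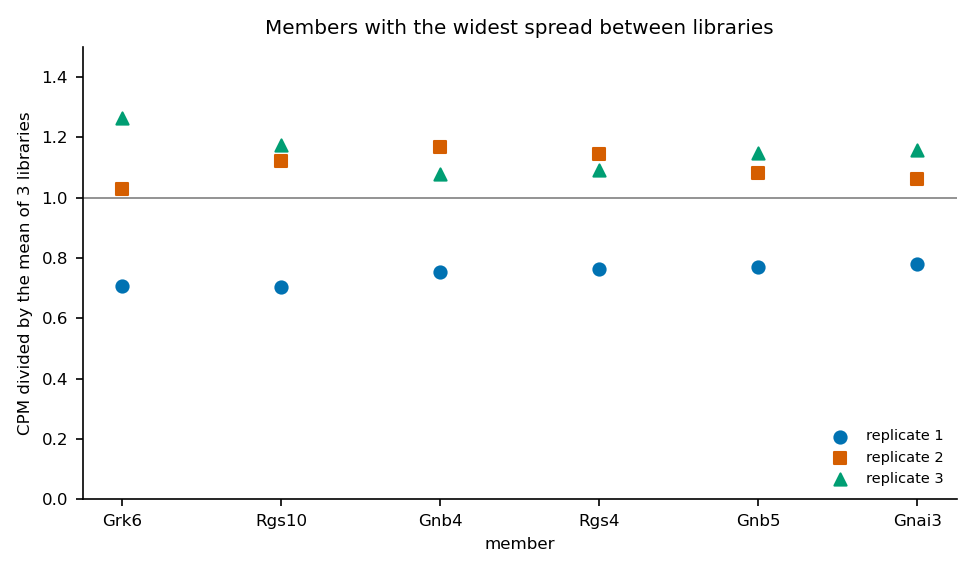
CPM of the 6 members with the widest spread, each divided by its mean over the 3 libraries, with 1 symbol per replicate. Replicate 1 lies below the line at 1 for all 6 genes, and replicates 2 and 3 lie above it.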

How the data were processed

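Ribosome-bound RNA was measured in 3 libraries of 1 group, named by the replicate numbers of the labels. The deposited values are raw read counts per gene symbol. STAR 2.0.0e, HTSeq and mm10 appear in the submitters' processing notes, without their roles. For the deposited counts, the annotation, counting mode and strandedness were not given in the sources used here. Reads of a gene and of one overlapping it on the other strand cannot be told apart. The 5 lines that name no gene stayed out of totals: 11.8%, 11.0% and 13.1% of records had no feature, 2.49%, 2.83% and 2.68% were ambiguous and 11.2%, 11.3% and 13.1% were not uniquely aligned.

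TPM was computed here from merged exon lengths of GENCODE M21 on GRCm38, the assembly that mm10 denotes. Of 32532 symbols, 23161 matched directly, 737 through an earlier symbol, and 8634 were left without a length. All 58 members had one. Levels on the log2(TPM + 0.1) scale understate differences of genes near 0. limma 3.58.1 (R 4.3.3) tested each gene against the median gene of its library and each pair of genes within libraries, two-sided, with Benjamini-Hochberg adjustment and a threshold of 0.05, over genes averaging 1 CPM or more. A chi-square test of counts against library sizes scaled by TMM tested the spread against counting error alone. Dispersions from edgeR 4.0.16 gave the size of the spread and did not enter that test. The scripts were tested on simulated data. Copies were sought with BLAST 2.17.0 (at least 95% identity over 75 bases), and promoter letters are from RefSeq on GRCm38.p6.

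Alternatives were other lengths, CPM, another pseudocount, no low filter, no moderation, DESeq2 1.42.0 size factors, unscaled totals and leaving out each replicate. Values per library are given for the 2 highest genes of each class, members of fixed pairs, and the 6 of at least 10 CPM with the largest coefficient of variation; other genes are given by range, count or a value. The members follow from the symbol rule alone, but the gene family, its rule, the lists and the pairs were all chosen with earlier results of these data known.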

Additional observations from a re-analysis of the deposited data

How the results depend on the processing

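The counts of members above and below the median gene and of pairs past the threshold stayed within 1.5 times under each alternative run, and 21 of 27 pairs kept their direction and call in all 9 settings. Gnao1 minus Gnai1 reversed to 0.47 log2 units with the longest transcript, 1.15 with the principal transcript and 1.29 in CPM. Gnao1 minus Gnas reversed to -0.42 with the longest transcript and ranged from -0.028 to 0.14 when a replicate was left out. Grk5 minus Grk6 reversed to -0.25 and -0.71 with the longest and principal transcript and ranged from -0.039 to 0.42 when a replicate was left out. In CPM, Gng2 minus Gng3 reversed to 0.65 and Rgs4 minus Rgs8 to -1.26. Rgs4 minus Rgs8 passed with a pseudocount of 1 (0.38) and without replicate 1 (0.68). Gna12 minus Gna13 was lost without moderation, without replicate 1 (-0.47) and without replicate 2 (-0.24). Members with an edgeR biological coefficient of variation of at least 0.2 numbered 16, against 59% of all genes. That value is drawn toward genes of like level. Members that varied by the chi-square test numbered 21 to 27 when a replicate was left out, against 34. The shares of all genes were 42.5% to 62.2% when a replicate was left out, against 74.3%. With the longest transcript, shares became 50.6% for Gi/o, 43.6% for Gs, 5.15% for Gq, 0.63% for G12, 86.9% for Gnb1, 50.5% for Gng3, 34.03% for Gng2 and 50.4% for R4. In CPM they were 51.0%, 42.4%, 5.93% and 0.73% for the alpha classes, 31.8% for Gng3, 49.8% for Gng2 and 57.9% for R4. Changes with the length setting follow from the lengths assigned, and the cause of the other changes was not tested. Gng5 and Gng13 had at most 34 counts in a library, and Rgs13 had 12, 18 and 17 in replicates 1, 2 and 3. The levels of these genes rest on few reads. No comparison of groups, paired or not, was possible because there is 1 group.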
